A study of Mus musculus with 12 samples.

Results

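The RNA levels of 10 genes of the PPARγ and lipid uptake pathway were followed in bone marrow-derived dendritic cells (BMDCs) with and without the architectural protein CTCF, before and after stimulation with lipopolysaccharide (LPS). The genes, chosen by symbol from 55335 genes in each library, were Pparg, Cd36, Scarb1, Msr1, Marco, Olr1, Fabp4, Fabp5, Lpl and Plin2. They were chosen with earlier results of these data known, so counts of them beside the shares of all tested genes are descriptions and not tests. Each symbol belonged to 1 gene identifier, and all 10 were among the 14008 genes with enough counts to be tested. PPARγ is a nuclear receptor that binds fatty acids and their derivatives and, paired with a retinoid X receptor (RXR), switches on genes for taking up, carrying and storing lipid. In myeloid cells GM-CSF induces it, and it is best known there for the identity of alveolar macrophages and for the uptake of modified lipoproteins through scavenger receptors. Its known target genes include those of the receptor Cd36, of the fatty acid binding protein Fabp4 and of the lipid droplet coat protein Plin2.

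Bone marrow of C57BL/6 mice was cultured for 6 days with GM-CSF, and RNA was sequenced in 4 groups of 3 libraries, which the series describes as biological triplicates. WT cells carried CreER alone and KO cells carried CreER;CTCF fl/fl, in which Cre fused to a tamoxifen-dependent receptor is made from the Rosa26 locus and cuts out floxed Ctcf. WTL and KOL were the same genotypes given LPS, the bacterial cell wall component that activates TLR4, at 100 ng/ml for 3 h, whereas WT and KO were left unstimulated. According to the methods, the mice were males and females of 8 to 12 weeks, floating cells were selected with CD11c microbeads, and 4-hydroxytamoxifen was given on the first day to delete Ctcf. Whether WT cultures received it too is not plainly stated, and if they did not, loss of CTCF and exposure to the drug cannot be told apart. Ctcf itself had 1004 ± 40.8 normalized counts (mean ± SD, n = 3) in WT, 816 ± 70.4 in WTL, 549 ± 29.0 in KO and 540.0 ± 20.4 in KOL, so its RNA was 54.7% of the WT level in KO and 66.2% of the WTL level in KOL.

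Total expected counts were 12769773 to 16586334 per library, of which ribosomal RNA made up 5.17% in WTL replicate 2 and 0.383% to 1.19% elsewhere. Counts are given as normalized counts, which are expected counts scaled to a common library size with the TMM method. A gene was called when its p from the quasi-likelihood test of edgeR, adjusted with the Benjamini-Hochberg method over the 14008 genes, was under 0.05 and the fold change exceeded 2 for LPS, 1.3 for KO against WT, or 1.5 for KOL against WTL. All adjusted p-values below come from that test. The dendritic cell markers Itgax, H2-Ab1, H2-Aa, Cd74, Ciita, Flt3, Zbtb46 and Dpp4 summed to 113940 to 120100 normalized counts in WT, 151990 to 204330 in WTL, 94626 to 96533 in KO and 166760 to 224150 in KOL. Within that sum the markers moved apart in KO, where Itgax was called higher at 178% of WT and H2-Ab1 (58.9%), H2-Aa (45.2%) and Flt3 (24.8%) were called lower. Of the adipocyte markers, listed because adipocytes express many of these genes, Adipoq, Lep, Cfd, Retn and Adrb3 had at most 3 counts in every library, and the list of 6 summed to 1.08 to 5.38. In bulk RNA, fewer cells of a type and less RNA per cell cannot be told apart.

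Promoter sequence was examined first, for the members that had a promoter window. RefSeq windows of 300 bases, from 250 before to 50 after a transcription start on GRCm38.p6, were matched for 5 of the 10 genes, namely Pparg with 3 starts and Cd36, Marco, Olr1 and Plin2 with 1 each. Scarb1, Msr1, Fabp4, Fabp5 and Lpl had no window, so the matches say nothing of them. AGGTCA, the core element read by nuclear receptors such as PPARγ and RXR, occurred on either strand in 5 of these 7 windows and in 16.3% of all 32851 windows of the table. Each stretch of 120 bases below lies wholly upstream of the start, runs 5′ to 3′ on the strand of the gene, and shows the element in capitals, as TGACCT where it stands in the reverse orientation.
Pparg, first start, chr6:115361024-115361143 (plus strand): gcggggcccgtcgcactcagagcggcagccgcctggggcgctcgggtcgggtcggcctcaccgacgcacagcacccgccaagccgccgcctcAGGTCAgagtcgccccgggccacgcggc
Pparg, second start, chr6:115362229-115362348 (plus strand): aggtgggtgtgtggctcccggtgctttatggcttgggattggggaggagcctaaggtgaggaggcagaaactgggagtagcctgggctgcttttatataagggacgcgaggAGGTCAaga
Cd36, chr5:17836027-17836146 (minus strand): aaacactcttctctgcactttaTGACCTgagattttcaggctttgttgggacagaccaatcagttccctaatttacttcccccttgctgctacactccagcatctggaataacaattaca
Olr1, chr6:129507278-129507397 (minus strand): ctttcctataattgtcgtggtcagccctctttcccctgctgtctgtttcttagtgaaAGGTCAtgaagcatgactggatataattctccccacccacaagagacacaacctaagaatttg
Plin2, chr4:86670190-86670309 (minus strand): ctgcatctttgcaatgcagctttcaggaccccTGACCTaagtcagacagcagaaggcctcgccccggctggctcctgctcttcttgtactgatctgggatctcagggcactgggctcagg

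The element began 28 bases before the first Pparg start, 9 bases before the second, 228 before that of Cd36, 175 before that of Olr1 and 218 before that of Plin2. The third Pparg window and the Marco window held none. The direct repeat that PPARγ and RXR bind as a pair, 2 AGGTCA elements in the same orientation separated by 1 base, was found in 0 of the 7 windows and in 0.0396% of all windows, each match of which also counts as an AGGTCA match. TTCNNNGAA, the element of the GM-CSF-activated factor STAT5, was found in 0 of the 7 windows and in 8.3% of all windows. These matches describe letters in a short window and not binding.

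Levels of different genes were compared in TPM, transcript numbers that allow for transcript length and share one sum per library. In WT cells the order was Fabp5 (1633 ± 107 TPM, mean ± SD, n = 3), Lpl (854 ± 52.4), Plin2 (422 ± 1.79), Cd36 (155 ± 12.7), Marco (114 ± 10.7), Msr1 (101 ± 12.6), Olr1 (79.1 ± 10.05), Fabp4 (54.5 ± 1.45), Scarb1 (41.7 ± 1.38) and Pparg (12.2 ± 0.67). Only Marco and Msr1 overlapped among neighbours in this order. Fabp5 had the highest and Pparg the lowest level in all 4 groups. Marco took place 5 in WT, place 3 in WTL at 313 ± 52.8 TPM, place 9 in KO at 10.8 ± 0.90 TPM and place 6 in KOL at 73.4 ± 7.07 TPM, and it moved through more of the order than any other of the 10 genes. Overlapping neighbours in the other groups were Msr1 with Olr1 and Olr1 with Cd36 in WTL, Plin2 with Lpl in KO, and Lpl with Olr1 and Marco with Msr1 in KOL. Pparg reached 1.11 ± 0.40 TPM in KOL.

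**Figure D1:**
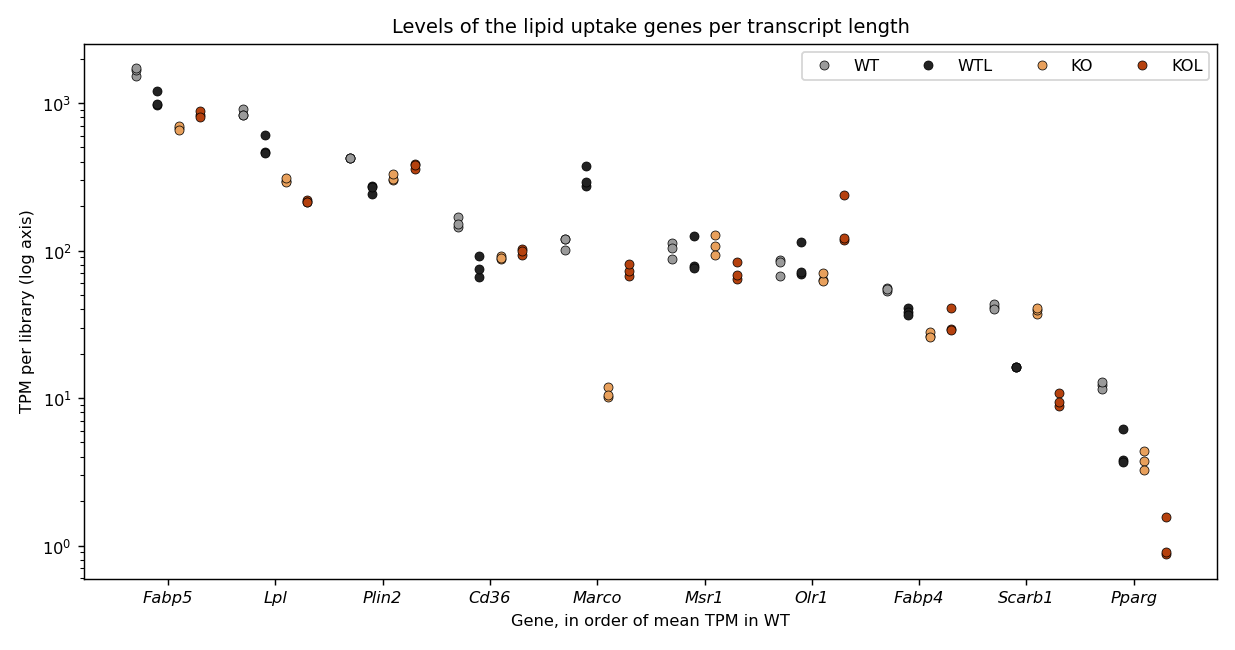
TPM of each gene on a log axis, with 1 point per library and 4 groups side by side, in the order of mean TPM in WT. Fabp5 was highest and Pparg lowest in every group, and Marco spanned the widest range, from 10.1 TPM in a KO library to 373 TPM in a WTL library.

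TPM is scaled to one sum per library, and on the log2(TPM + 1) scale the median of all genes moved by -0.44 from WT to WTL, -0.10 from WT to KO and -0.38 from KO to KOL, against at most 0.03 in size for the TMM counts. On TPM the called genes also split differently, into 770 higher and 1975 lower in WTL instead of 1766 and 1400, and into 932 and 2178 in KOL against KO instead of 2113 and 1819. For KO against WT the split was 1556 and 2524 instead of 2427 and 2405, and for the interaction 949 and 603 instead of 1218 and 1225. The comparisons below use the counts, and tested directions that turn on TPM are named where they occur.

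**Figure D2:**
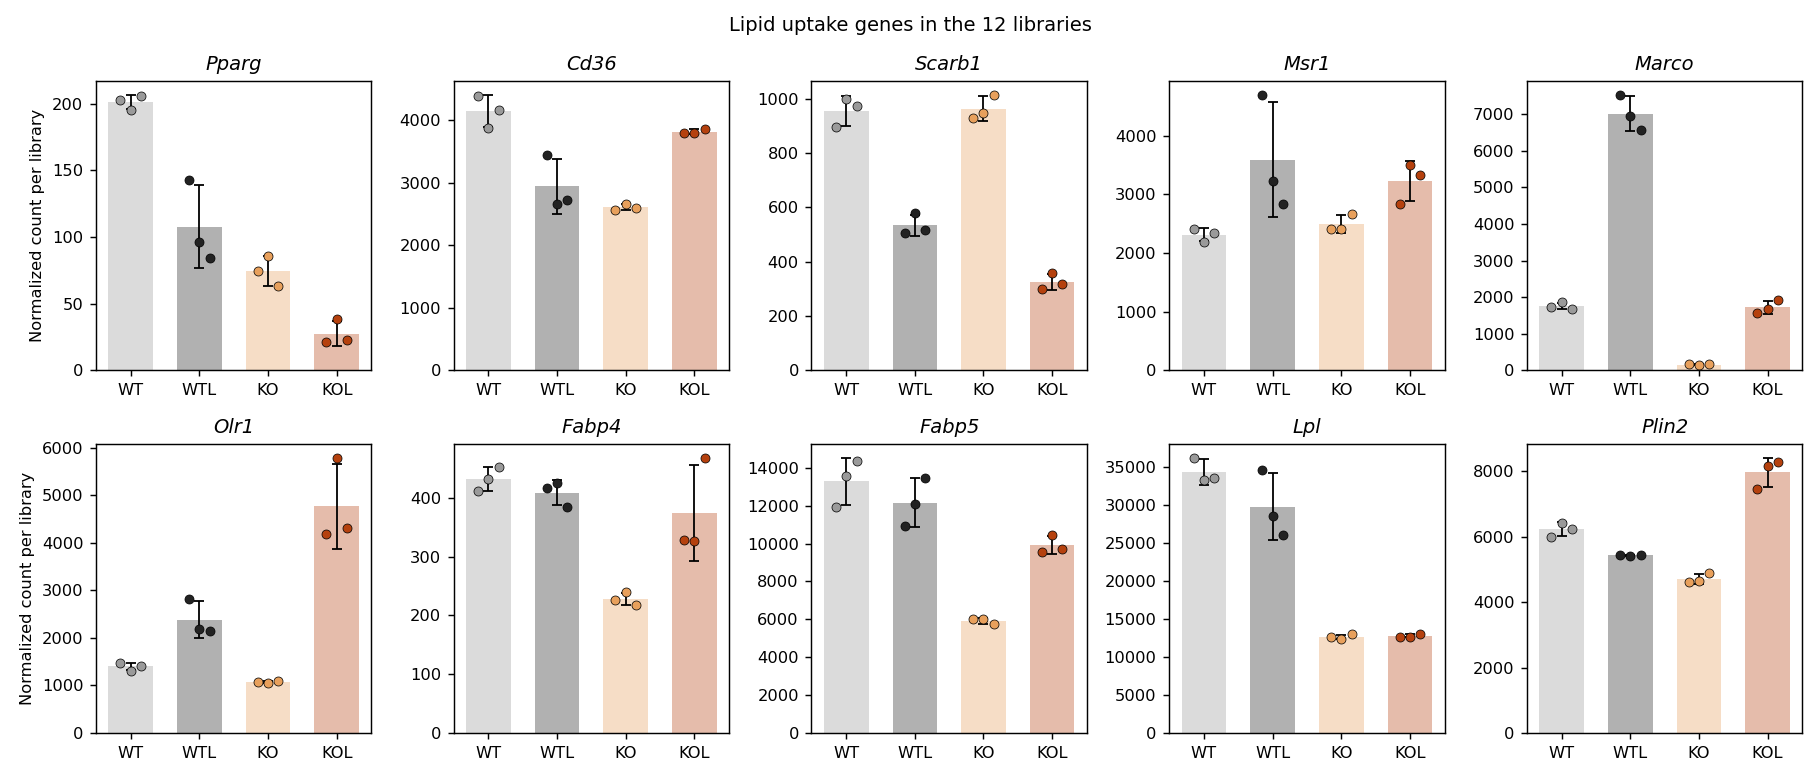
Normalized counts of the 10 genes in the 12 libraries. Each point is a library, bars are group means and error bars are SDs over 3 libraries; the axes start at 0 and differ between genes. Lpl lay between 12338 and 12981 in KO and KOL and at 26042 or more in every WT and WTL library, and Marco in KO, at 132 to 164, was close to the axis.

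The first question was what the loss of CTCF did to these genes in unstimulated cells. Compared with WT, 8 of the 10 genes were downregulated in KO and 0 were upregulated, where 17.2% of all tested genes were called lower and 17.3% higher. Because the 10 genes were chosen with earlier results of these data known, the difference from those shares is no test of the list. The 8 were Marco, Lpl, Pparg, Fabp5, Fabp4, Cd36, Plin2 and Olr1, and the 2 that were not called were Scarb1 and Msr1. The median log2 fold change of the 10 genes was -0.80, beside -0.01 for all genes tested. Only for Scarb1 and Msr1 did KO and WT libraries overlap, and the share of all tested genes without overlap was not counted.

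Pparg (ENSMUSG00000000440.12, chromosome 6 from 115360951 to 115490399), the receptor itself, had normalized counts of 203, 195 and 206 in WT, 143, 96.4 and 84.0 in WTL, 74.5, 85.5 and 63.0 in KO, and 21.5, 38.6 and 22.4 in KOL. All KO libraries were below all WT libraries, and all KOL libraries were below the KO libraries. Pparg in KO was 36.9% of the WT level, a log2 fold change of -1.44 with SE 0.19 (adjusted p = 2.65e-05). After LPS, KOL was at 25.5% of WTL, and the log2 fold change was -1.96 with SE 0.24 (adjusted p = 1.50e-05). A non-coding antisense gene, Gm44079, overlaps Pparg and had at most 1 count in any library.

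Among the class B scavenger receptors, Cd36 (ENSMUSG00000002944.15, chromosome 5 from 17781690 to 17888801) takes up long-chain fatty acids and oxidized lipoproteins. Its normalized counts were 4397, 3878 and 4174 in WT, 3447, 2665 and 2722 in WTL, 2563, 2662 and 2599 in KO, and 3795, 3803 and 3860.0 in KOL. The KO libraries lay below both unstimulated and LPS-stimulated WT libraries, while the KOL libraries lay between those of WTL and WT. In TPM the KO and WTL libraries overlapped. Cd36 in KO was 62.9% of WT, a log2 fold change of -0.67 with SE 0.09 (adjusted p = 2.84e-05). In KOL it was 130% of WTL, and its log2 fold change of 0.38 with SE 0.09 (adjusted p = 0.00346) stayed under the cutoff of 1.5-fold.

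Scarb1 (ENSMUSG00000037936.15, chromosome 5 from 125277087 to 125341094), the receptor through which HDL delivers cholesterol esters, had normalized counts of 895, 998 and 971 in WT, 506, 577 and 518 in WTL, 930.4, 947 and 1014 in KO, and 299, 358 and 316 in KOL. Here WT and KO overlapped, and every LPS-stimulated library was below every unstimulated one. The log2 fold change in KO against WT was 0.01 with SE 0.08 (adjusted p = 0.91), with an approximate 95% interval of -0.14 to 0.17, and its sign turned with the processing. In KOL, Scarb1 was 60.8% of the WTL level, a log2 fold change of -0.72 with SE 0.09 (adjusted p = 1.15e-05). It was thus called lower in the presence of LPS and not in its absence, and the difference between the contrasts is the interaction given below.

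Marco (ENSMUSG00000026390.7, chromosome 1 from 120474538 to 120505024), a class A scavenger receptor of macrophages that binds bacteria and particles, had normalized counts of 1720.5, 1861 and 1684 in WT, 7532, 6947 and 6567 in WTL, 157, 132 and 164 in KO, and 1559, 1664 and 1926 in KOL. On the counts, no groups overlapped except WT with KOL, whose libraries interleaved. In TPM, KOL was below WT without overlap. Marco in KO was 8.59% of WT, a log2 fold change of -3.54 with SE 0.11 (adjusted p = 1.65e-11) and the largest among the 10 genes. In KOL it was 24.5% of WTL, a log2 fold change of -2.03 with SE 0.10 (adjusted p = 9.98e-10).

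The other class A receptor, Msr1 (ENSMUSG00000025044.16, chromosome 8 from 39581685 to 39642673), which binds modified LDL, had normalized counts of 2411, 2189 and 2335 in WT, 4696, 3231 and 2837 in WTL, 2402, 2403 and 2661 in KO, and 2838, 3494 and 3324 in KOL. WTL replicate 1 stood above the other libraries. Neither contrast of CTCF loss was called for Msr1, with log2 fold changes of 0.11 with SE 0.14 (adjusted p = 0.584) in KO against WT and -0.16 with SE 0.14 (adjusted p = 0.408) in KOL against WTL. The approximate 95% intervals were -0.18 to 0.39 and -0.44 to 0.13.

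Olr1 (ENSMUSG00000030162.14, chromosome 6 from 129485244 to 129507165), which encodes the lectin-like receptor for oxidized LDL, had normalized counts of 1472, 1312 and 1409 in WT, 2823, 2179.5 and 2147 in WTL, 1066, 1043 and 1087 in KO, and 4178, 5793 and 4320.2 in KOL. The KO libraries were below the WT libraries, and the KOL libraries were above all others. The log2 fold change in KO against WT was -0.39 with SE 0.13 (adjusted p = 0.0211), a fold of 1.31 that barely exceeded the cutoff of 1.3. This call was lost without WT replicate 1 (adjusted p = 0.0507) and without KO replicate 1, 2 or 3 (adjusted p = 0.0588, 0.0674 and 0.0516), and on log2(TPM + 1) (adjusted p = 0.447 from limma). After LPS the direction was the opposite, with Olr1 in KOL at 2.00-fold of WTL, a log2 fold change of 1.0001 with SE 0.12 (adjusted p = 1.51e-05). Olr1 was the 1 gene of the 10 called higher in KOL against WTL, where 12.5% of all tested genes were called higher.

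The fatty acid binding proteins carry fatty acids inside the cell, and their genes lie near each other on chromosome 3, with 187480 bases between them. Fabp4 (ENSMUSG00000062515.3, chromosome 3 from 10204088 to 10208576) had normalized counts of 412, 433 and 453 in WT, 417, 425 and 385 in WTL, 227, 239 and 218 in KO, and 328, 326 and 469 in KOL. Its KO libraries were below all others, and its KOL libraries overlapped those of WTL. Fabp4 in KO was 52.7% of WT, a log2 fold change of -0.92 with SE 0.12 (adjusted p = 2.12e-05), and in KOL against WTL the log2 fold change was -0.12 with SE 0.12 (adjusted p = 0.428).

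Fabp5 (ENSMUSG00000027533.10, chromosome 3 from 10012548 to 10016607) had normalized counts of 11934, 13588 and 14375 in WT, 10901, 12080 and 13482 in WTL, 5989.8, 6036 and 5755 in KO, and 9569, 10458 and 9705 in KOL. As for Fabp4, the KO libraries were the lowest. Fabp5 in KO was 44.6% of WT, a log2 fold change of -1.17 with SE 0.09 (adjusted p = 8.93e-08). In KOL it was 81.5% of WTL, and its log2 fold change of -0.29 with SE 0.09 (adjusted p = 0.0132) stayed under the fold cutoff. Fabp5 was the 1 gene of the 10 with fractional expected counts, in all 12 libraries, so some of its reads also fit other genes and were divided among them.

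Lpl (ENSMUSG00000015568.16, chromosome 8 from 68880491 to 68907448), lipoprotein lipase, releases fatty acids from the triglycerides of lipoproteins. Its normalized counts were 36216, 33198 and 33510 in WT, 34627, 28573 and 26042 in WTL, 12601, 12338 and 12943 in KO, and 12631, 12651 and 12981 in KOL. Every KO and KOL library was below every WT and WTL library, and the libraries of KO and KOL interleaved. Lpl in KO was 36.8% of WT, a log2 fold change of -1.44 with SE 0.09 (adjusted p = 1.33e-08). Its level in KOL was 42.9% of WTL, a log2 fold change of -1.22 with SE 0.09 (adjusted p = 7.44e-08).

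Plin2 (ENSMUSG00000028494.12, chromosome 4 from 86648386 to 86670060), the coat protein of lipid droplets, had normalized counts of 6003, 6428 and 6248 in WT, 5440.5, 5422 and 5449 in WTL, 4604, 4634 and 4901 in KO, and 7463, 8169 and 8299.8 in KOL. On the counts the groups did not overlap, and their order was KO, WTL, WT and KOL from low to high. In TPM the order was WTL (261), KO (312), KOL (375) and WT (422), also without overlap. Plin2 in KO was 75.7% of WT, a log2 fold change of -0.40 with SE 0.06 (adjusted p = 0.000125) that exceeded the cutoff of 1.3-fold narrowly, at 1.32-fold. In KOL it was 147% of WTL, a log2 fold change of 0.55 with SE 0.06 (adjusted p = 6.47e-06) at 1.47-fold, short of the cutoff of 1.5. It passed that cutoff without WT replicate 1, 2 or 3 and without KOL replicate 1, when 2 of the 10 genes instead of 1 were called higher in KOL.

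Compared with WTL, 4 of the 10 genes were downregulated in KOL, where 12.5% of all tested genes were called lower. They were Marco, Pparg, Lpl and Scarb1, of which Marco, Pparg and Lpl were also called lower in KO against WT. The median log2 fold change of the 10 genes in KOL against WTL was -0.23, beside -0.03 for all genes. The KO and KOL contrasts have no libraries in common, but each shares its libraries with the LPS comparisons.

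**Figure D3:**
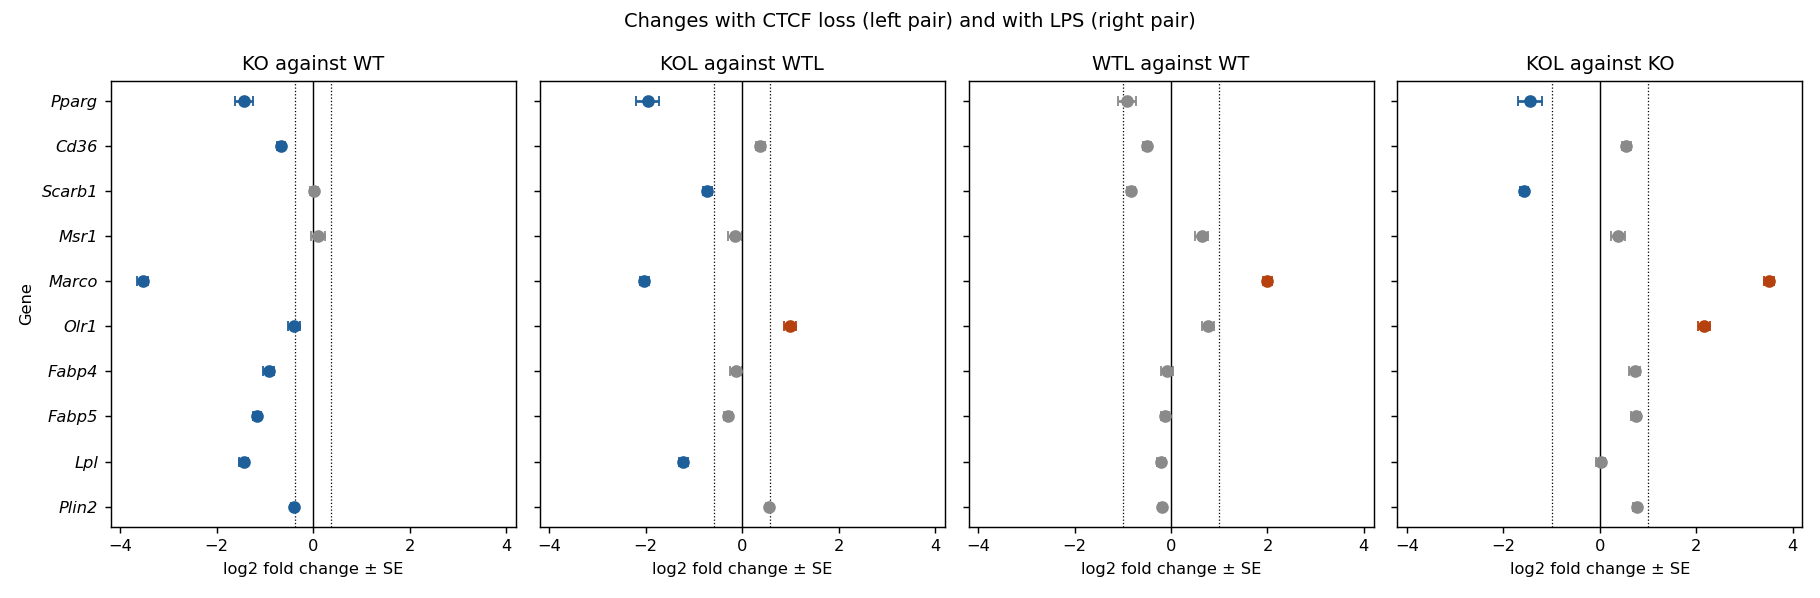
Log2 fold change of each gene ± SE in 4 comparisons, where blue points were called lower, red points called higher and grey points not called; dotted lines mark the fold cutoff of each comparison. In KO against WT, 8 points are blue and Marco is farthest from 0 at -3.54, whereas in the LPS comparisons Marco is farthest to the right.

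The second question was how the genes responded to LPS in WT cells. In WTL against WT, 1 of the 10 genes was upregulated and 0 were downregulated, where 12.6% of all tested genes were called higher and 9.99% lower. The upregulated gene was Marco, which rose from 1755 ± 93.2 to 7015 ± 486 normalized counts (log2 fold change 1.9985, SE of 0.10, adjusted p = 2.27e-10). A further 6 genes passed the adjusted p without a 2-fold change. At an unadjusted p under 0.05 from the same test, a looser threshold, 9039 of the 14008 genes passed, in either direction. The share of all tested genes at the adjusted p without a fold cutoff was not counted. Pparg in WTL was 53.5% of WT, and the log2 fold change was -0.92 with SE 0.19 (adjusted p = 0.000736), a change of 1.89-fold. It passed the 2-fold cutoff without WTL replicate 1 (-1.16), without WT replicate 2 (-1.01, or -0.93 relative to the median of all genes) and on log2(TPM + 1) (-1.27, or -0.83 relative to that median).

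The class B receptors were both lower in every WTL library than in any WT library. For Scarb1 the log2 fold change was -0.84 with SE 0.08 (adjusted p = 6.50e-07), and for Cd36 it was -0.50 with SE 0.09 (adjusted p = 0.000257). Plin2 had the smallest of these differences, -0.20 with SE 0.06 (adjusted p = 0.0154). On the log2(TPM + 1) scale Scarb1 was called lower as well, with a log2 fold change of -1.31, which was -0.87 relative to the median of all genes and so under 2-fold.

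In the other direction, Olr1 had a log2 fold change of 0.77 with SE 0.13 (adjusted p = 0.000105) and Msr1 one of 0.63 with SE 0.14 (adjusted p = 0.00162) in WTL against WT. For Msr1 the sign turned on log2(TPM + 1), where it was -0.14, or 0.29 above the median of all genes. The effective length of Msr1, the transcript length that RSEM weights by isoform, was 1864 to 2701 bases in the WT libraries, 2535 to 2590 bases in WTL, 1855 to 2319 bases in KO and 2661 to 3109 bases in KOL. Its part in that difference was not tested. Fabp4 (log2 fold change -0.08, SE of 0.12, adjusted p = 0.561), Fabp5 (-0.13, SE of 0.09, adjusted p = 0.212) and Lpl (-0.21, SE of 0.09, adjusted p = 0.0586) did not pass the test, and their WT and WTL libraries overlapped.

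In CTCF-deficient cells the response to LPS had a different shape. In KOL against KO, 2 genes were upregulated, where 15.1% of all tested genes were called higher, and 2 were downregulated, where 13.0% were called lower. Marco rose from 151 ± 17.1 to 1716 ± 189 normalized counts, 11.4-fold (log2 fold change 3.51, SE of 0.11, adjusted p = 2.13e-12). On the counts its KOL libraries interleaved with those of unstimulated WT cells. In TPM it was lower in KOL, at 73.4 ± 7.07 against 114 ± 10.7 in WT, with no overlap. KOL against WT was not tested. Olr1 rose 4.47-fold, from 1065 ± 22.0 to 4764 ± 894 (log2 fold change 2.16, SE of 0.13, adjusted p = 2.53e-09).

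Scarb1 fell to 33.7% of its KO level (log2 fold change -1.57, SE of 0.09, adjusted p = 8.67e-10) and Pparg to 37% (log2 fold change -1.44, SE of 0.25, adjusted p = 0.000145). A further 5 genes were higher in KOL than in KO by the adjusted p but by less than 2-fold, with log2 fold changes of 0.76 with SE 0.06 (adjusted p = 9.75e-08) for Plin2, 0.74 for Fabp5, 0.72 for Fabp4, 0.55 for Cd36 and 0.37 for Msr1. Of all 14008 genes, 9814 had an unadjusted p under 0.05 from the same test, in either direction. That threshold is looser, and their number at the adjusted p without a fold cutoff was not counted. Lpl had a log2 fold change of 0.01 with SE 0.09 (adjusted p = 0.896). On log2(TPM + 1), Msr1 and Lpl changed sign in this comparison, to -0.60 and -0.47, or -0.22 and -0.09 relative to the median of all genes. The median of the 10 genes was 0.63 on the counts, beside -0.02 for all genes.

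The difference between the responses was tested directly, as the log2 fold change with LPS in KO minus that in WT. The response was more positive in KO for 6 of the 10 genes, where 8.7% of all tested genes were called so, and more negative for 1, where 8.75% were. These counts, too, describe genes chosen with earlier results known. Marco had the largest difference, 1.51 with SE 0.14 (adjusted p = 9.56e-06), since it rose 4.00-fold in WT and 11.4-fold in KO. The difference for Olr1 was 1.39 with SE 0.18 (adjusted p = 0.000115). On log2(TPM + 1) the Olr1 difference was 1.13 and missed the threshold (adjusted p = 0.0721 from limma).

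Cd36 and Plin2 responded in opposite directions with and without CTCF. Cd36 was 71% of its unstimulated level in WTL and 146% in KOL, with no overlap between the groups in either comparison, and the difference of the log2 responses was 1.05 with SE 0.13 (adjusted p = 7.96e-05). Plin2 was 87.3% of its unstimulated level in WTL and 169% in KOL, and the difference was 0.95 with SE 0.09 (adjusted p = 1.03e-05). None of these 4 changes reached 2-fold.

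The fatty acid binding proteins changed with LPS in KO and not detectably in WT. The difference between the responses was 0.87 with SE 0.12 (adjusted p = 0.000273) for Fabp5 and 0.80 with SE 0.17 (adjusted p = 0.00488) for Fabp4. In KOL, Fabp4 was at 91.6% and Fabp5 at 81.5% of the WTL level, compared with 52.7% and 44.6% of the WT level before LPS. Scarb1 was the 1 gene with a more negative response in KO, -0.73 with SE 0.12 (adjusted p = 0.000748).

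For Pparg (-0.52, SE of 0.32, adjusted p = 0.29), Msr1 (-0.26, SE of 0.20, adjusted p = 0.419) and Lpl (0.22, SE of 0.13, adjusted p = 0.261) the difference was not called. The approximate 95% interval for Pparg, -1.14 to 0.10, is wide, and its KOL libraries held the fewest counts of the 10 genes. On log2(TPM + 1) its sign turned, to 0.082 (adjusted p = 0.877 from limma). The interaction of Lpl passed the threshold without WTL replicate 1 (0.34, adjusted p = 0.015). The median difference of the 10 genes was 0.84, beside -0.02 for all genes.

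**Figure D4:**
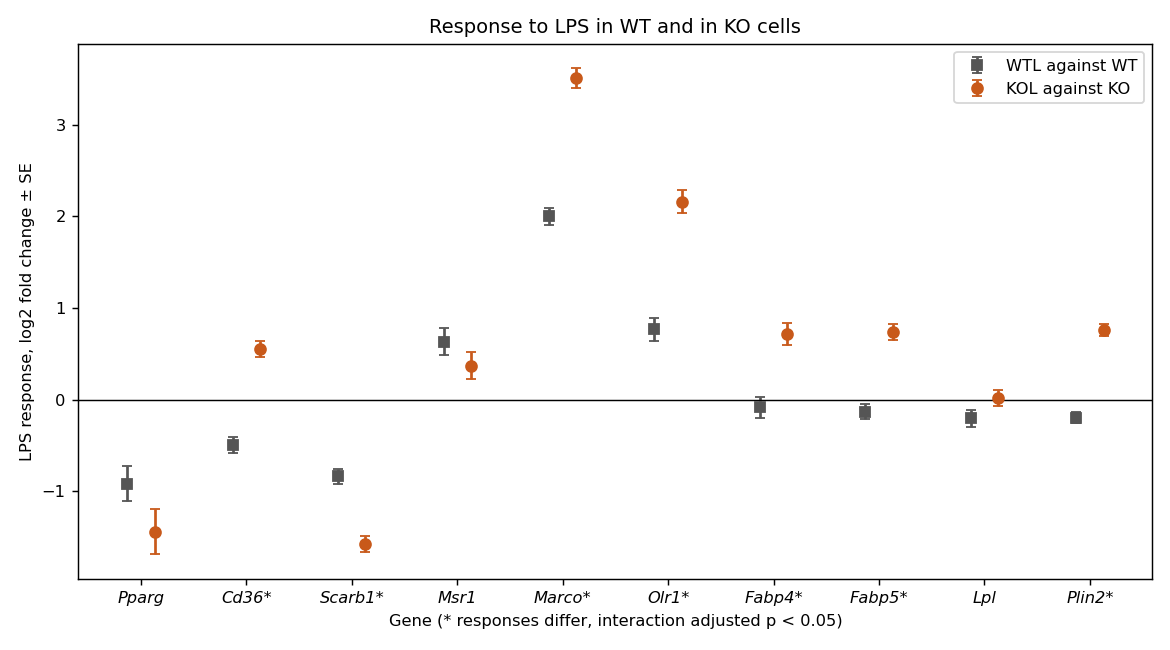
Response to LPS of each gene as log2 fold change ± SE, in WT cells (grey squares, WTL against WT) and in KO cells (orange circles, KOL against KO). Asterisks mark the 7 genes whose responses differed by the interaction test, and for Cd36 and Plin2 the points lie on opposite sides of 0.

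The PPAR family and its partners were examined next, with a list of 17 genes of which 14 were tested. Among the other PPARs, Ppara had at most 3 counts in every library. Ppard, the PPAR of most tissues, had 514 ± 32.7 normalized counts (mean ± SD, n = 3) in WT, 284 ± 10.6 in WTL, 670.0 ± 20.9 in KO and 436 ± 38.4 in KOL. It was called higher in KO against WT at 1.302-fold (log2 fold change 0.38, SE of 0.08, adjusted p = 0.000954), the opposite direction to Pparg, and in KOL against WTL at 1.54-fold (log2 fold change 0.62, SE of 0.08, adjusted p = 3.14e-05). Rxra, the RXR partner, was at 982 ± 77.6 in WT and 961 ± 50.6 in KO (log2 fold change -0.03, SE of 0.08, adjusted p = 0.794), and fell to 393 ± 32.4 in WTL and 323 ± 27.2 in KOL. Rxrb had log2 fold changes of -0.06 in KO against WT and -0.61 with SE 0.11 (adjusted p = 0.000217) in WTL against WT, neither of which was called.

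In KO against WT, 2 of the 14 genes were called higher and 1 lower, where 17.3% of all tested genes were called higher and 17.2% lower. For the lists that follow, the shares of all tested genes called higher and lower were 12.5% and 12.5% in KOL against WTL, 12.6% and 9.99% in WTL against WT, and 15.1% and 13.0% in KOL against KO. Ppargc1b, a coactivator of mitochondrial genes, was higher with Ppard (log2 fold change 0.93), and Cebpa, the C/EBP factor that works with PPARγ in fat cells and myeloid cells, was lower (-0.82). In KOL against WTL, Ppard was the 1 gene higher and Cebpa (-1.46) and the coactivator Ncoa1 (-0.80) were lower. With LPS, 4 of 14 were lower in WTL, led by Cebpa (-1.69) and Rxra (-1.32), and 5 of 14 were lower in KOL against KO, led by Cebpa (-2.33) and Ppargc1b (-1.89). None of the 14 was called higher with LPS in either genotype.

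Of 24 PPAR target genes of fatty acid oxidation and lipid handling, 20 were tested, and 7 were called lower and 2 higher in KO against WT (17.2% and 17.3% of all tested genes). Angptl4, an inhibitor of lipoprotein lipase, fell from 267 ± 15.2 to 45.0 ± 4.92 (log2 fold change -2.56, SE of 0.16, adjusted p = 9.30e-09), and Acaa2, a thiolase of β-oxidation, had a log2 fold change of -1.03. Pltp (0.54), which transfers phospholipids between lipoproteins, and the dehydrogenase Acadvl (0.44) were the 2 called higher. The list's median was -0.34, beside -0.01 for all genes. In KOL against WTL, 6 were lower, led by the glycerol kinase Gk (-0.82) and Acaa2 (-0.76) among those with at least 100 counts, and the 1 higher was Hadhb (0.99), another enzyme of β-oxidation.

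With LPS, 3 of the 20 were higher and 4 lower in WTL, and 3 were higher and 2 lower in KOL against KO. Acsl1, which activates fatty acids with coenzyme A, rose from 1366 ± 22.5 to 8065 ± 1511 in WT cells (log2 fold change 2.56) and in KO cells by 2.25, and Gk rose by 1.51 and 1.28 on the log2 scale. Angptl4 (-2.17) was among those that fell in WTL, and Pltp (-1.3024) among those that fell in KOL. For Angptl4 the response to LPS was more positive in KO (interaction 1.5020, SE of 0.26, adjusted p = 0.00138), from the lower starting level.

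Of 18 other scavenger receptors, 14 were tested, and in KO against WT 4 were higher and 3 lower (17.3% and 17.2% of all tested genes). Of those with at least 100 counts, Scarf1, which takes up acetylated LDL and apoptotic cells, was the most raised (0.59). In KOL against WTL, 4 were higher and 3 lower, with Lrp1 (-0.73), a large receptor of lipoprotein remnants, among the latter. After LPS, 1 was higher and 4 lower in WTL, where Scarf1 (1.37) rose and Stab1 (-1.56) fell. In KOL against KO, 1 was higher and 4 lower, with Lrp1 (-1.72) and Stab1 (-1.4987) among the latter.

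Genes of fatty acid transport, binding and activation numbered 20, of which 12 were tested, and Angptl4, Acsl1 and Fabp3 are on the list of PPAR targets too. In KO against WT, 4 were lower, among them Angptl4 and the acyl-CoA synthetase Acsl3 (-0.76), where 17.2% of all tested genes were lower. The 1 higher was Acbd3 (0.45), named for an acyl-CoA binding domain, where 17.3% of all tested genes were higher. In KOL against WTL, 4 were lower, with Acsl1 (-0.66) and the lipase maturation factor Lmf1 (-0.64) leading those with at least 100 counts, and Slc27a3 (0.87), of the fatty acid transport protein family, was higher. In WTL, 2 were higher and 2 lower, the latter being Angptl4 and Acsl3 (-1.33). In KOL against KO, 2 were higher and 1 lower.

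Of 25 genes of lipid droplets, triglyceride storage and lipolysis, 19 were tested, and 3 were higher and 4 lower in KO against WT, shares near the 17.3% and 17.2% of all tested genes. The acyltransferases Agpat2 (1.18) and Dgat2 (0.70) rose, whereas Hilpda, a lipid droplet protein that inhibits lipolysis, fell (-1.56) together with Dgat1 (-0.73). Hilpda had counts of 166 ± 15.3 in WT, 526 ± 42.5 in WTL, 56.1 ± 6.21 in KO and 723 ± 90.1 in KOL. This is the order that Plin2 had in KO, WT and KOL on the counts, though not in TPM. The interaction of Hilpda was 2.02 with SE 0.17 (adjusted p = 4.46e-06). In KOL against WTL, 6 were higher and 1 lower, with the lipases Lipe (1.28) and Mgll (0.79) among the former.

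In WTL against WT, 1 of the 19, Hilpda (1.66), was higher and 3 were lower, led by the phosphatidate phosphatase Lpin1 (-2.81) and Soat1 (-1.41), which esterifies cholesterol. In KOL against KO, 5 were higher and 3 lower. Hilpda (3.68) and Dgat1 (1.09) were among the former, and Lpin1 (-3.44) and Soat1 (-1.46) among the latter. Over the 5 lists, called genes went in both directions in KO against WT.

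**Figure D5:**
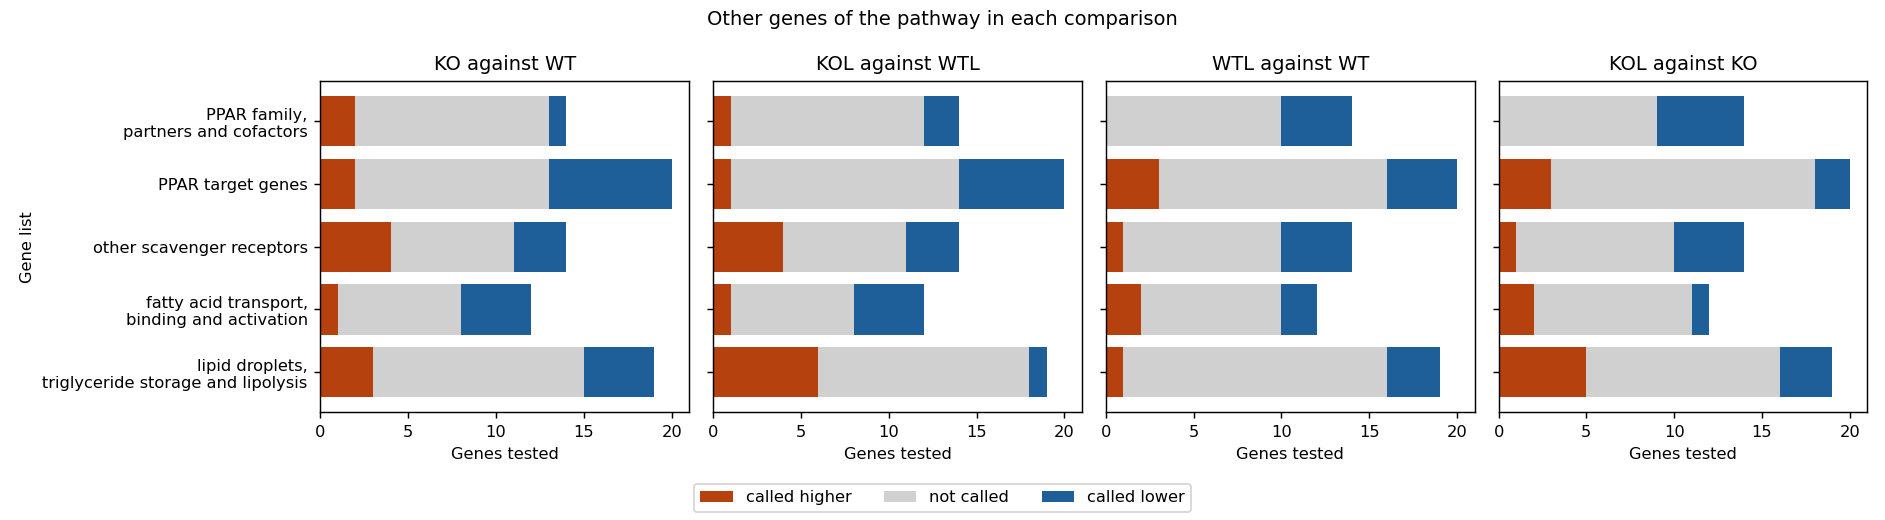
Number of tested genes of 5 pathway lists that were called higher (red), called lower (blue) or not called (grey) in each of 4 comparisons. In KO against WT, 7 of the 20 PPAR target genes were called lower and 2 higher, and in KOL against WTL, 6 of the 19 lipid droplet genes were called higher and 1 lower.

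Marker lists of other cells moved with CTCF loss as well. Of 9 markers of alveolar macrophages, the myeloid cells in which PPARγ is best known, 6 were tested and 3 were called lower and 2 higher in KO against WT. For this list and those below, 17.2% of all tested genes were called lower and 17.3% higher in that comparison. Car4 fell from 917 ± 19.7 to 81.7 ± 6.56 (log2 fold change -3.49, SE of 0.11, adjusted p = 2.02e-11), close in size to Marco, whereas Ear2 (1.93) and Siglecf (1.02) rose. The list summed to 19979 to 20863 in WT, 14456 to 22129 in WTL, 31082 to 32713 in KO and 16616 to 22532 in KOL, with Krt19 at no more than 3 counts in any library. Most of the KO sum came from Ear2, at 24005 ± 769 against 6314 ± 92.9 in WT. Chil3 fell from 8721 ± 302 in WT to 3412 ± 108 in KO, and Ear1 from 173 ± 22.7 to 85.5 ± 15.5. The neutrophil list (S100a8, S100a9, Ly6g, Retnlg, Camp, Ngp, Ltf, Mpo and Elane) summed to 1176 to 1295 in WT, 1732 to 2059 in WTL, 589 to 671 in KO and 1196 to 1413 in KOL, and 6 of its 7 tested genes were called lower in KO. The macrophage list of 9 genes had 3 higher and 4 lower in KO. Their part in the lower lipid uptake genes was not tested.

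Endothelial and stromal lists of 6 and 5 genes were low in WT, at 12.1 to 26.0 and 38.6 to 47.0 summed normalized counts, and higher both in WTL, at 433 to 507 and 156 to 287, and in KO, at 166 to 186 and 261 to 279. In KO most of each sum came from 1 gene, Egfl7 at 146 ± 18.6 and Pdgfrb at 250 ± 12.6 (mean ± SD, n = 3), against 1.17 ± 1.02 and 28.1 ± 3.13 in WT. In KOL the endothelial list, in which Tek, Emcn and Gpihbp1 had at most 3 counts in every library, reached 852 to 925, mostly through Kdr at 761 ± 62.3, which was at 459 ± 37.4 in WTL. The stromal list was at 149 to 253 in KOL, and the mast cell and basophil list of 4 genes summed to at most 9.57 in any library. Whether these transcripts contributed to Lpl or Cd36, which endothelial and stromal cells also express, was not tested.

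Patterns over the 12 libraries were compared last, as Pearson correlations of log2(normalized count + 1) among tested genes with at least 100 normalized counts on average. The 5 genes most like Pparg were Smc2, Haus6, Ncapg2, Gpr155 and Fcgr2b, with r of 0.987 to 0.990. Smc2, the closest, had means of 1104, 766, 652 and 352 in WT, WTL, KO and KOL. Fcgr2b, the inhibitory Fc receptor and the last of the 5, had means of 6076, 3609, 2871 and 1457. Both had the same order as Pparg. The 5 most like Cd36 were Lonrf1, Nasp, Nabp1, Rsrc2 and Uchl5, with r of 0.872 to 0.951, and Lonrf1 had means of 180, 123, 113 and 172. The points are 4 groups of 3 libraries, so these values describe shared group means over 9337 genes searched and carry no test.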

How the data were processed

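RNA was measured in 12 libraries, grouped by genotype and LPS from their labels. Reads were trimmed (Trim Galore) and aligned to mm10 by the authors with STAR (2.5.1 in the submitters' processing notes). The authors deposited for each gene an expected count from RSEM, which splits ambiguous reads between genes. The TPM and effective length (bases) that the authors deposited come from the same RSEM runs, and TPM keeps no depth. The methods name a stranded poly(A) kit and the labels depletion of ribosomal RNA, which could change the counts of non-polyadenylated RNA. Antisense overlaps are therefore uncertain.

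Expected counts were rounded to whole numbers, filtered with filterByExpr and tested with edgeR 4.0.16 in R 4.3.3 (TMM, glmQLFit and glmQLFTest, Benjamini-Hochberg adjustment), in 1 fit of all libraries with a mean per group. Approximate 95% intervals were made from the SE. For each gene, the p-values rest on 1 estimate of the spread between libraries within groups, shared by all 4 groups. That spread differed between groups. Replicates were compared by chi-square per degree of freedom, which grows with their differences. It was 1.66 to 1.86 in KO, 3.14 to 4.45 in WT, 8.07 to 28.5 in KOL and 28.3 to 77.7 in WTL. The 10 genes and the lists were chosen with earlier results of these data known. Of each pathway list and comparison, the text names the 2 largest rises and the 2 largest falls among called genes with at least 100 normalized counts and no overlap between groups; some of these are not reported here. Gene positions are from GENCODE M21 on GRCm38 (mm10). The alternatives were DESeq2 1.42.0, limma 3.58.1 on TPM, other filters, normalization, sample sets and fold cutoffs, a replicate block and leaving out each library. Python 3.11.15 and pandas 2.3.3 made the tables.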

Additional observations from a re-analysis of the deposited data

Results flagged for a closer look

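The response to LPS differed between KO and WT cells, by the interaction term of the edgeR fit, for 7 of the 10 genes. As the log2 response in KO minus that in WT, the difference was 1.51 for Marco, 1.39 for Olr1, 1.05 for Cd36, 0.95 for Plin2, 0.87 for Fabp5, 0.80 for Fabp4 and -0.73 for Scarb1. For Cd36 and Plin2 the responses had opposite signs, and all 3 KOL libraries were above all 3 KO libraries while all 3 WTL libraries were below all 3 WT libraries. Marco, Olr1, Cd36, Plin2, Fabp5 and Fabp4 started from a lower level in KO, and Scarb1 did not. Pparg and Lpl also started lower, at 36.9% and 36.8% of WT, and had no called difference. The unstimulated levels enter the interaction term themselves, and a part of the starting level in the response was not tested.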

How the results depend on the processing

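The 10 counts of called genes stayed within 1.5 times under DESeq2, DESeq2's size factors, a minimum of 10 counts in every library, and no filter, as did the 8 outside the interaction with the 6 libraries of a comparison alone. Without a fold cutoff, 3 genes were higher and 4 lower in WTL against WT, 3 were higher in KOL against WTL and 7 were higher in KOL against KO. At an unadjusted p under 0.05 from edgeR, a looser threshold, 9039, 7112 and 9814 of all 14008 genes passed in these comparisons, in either direction. How many of all genes passed the adjusted p without a fold cutoff was not counted. On log2(TPM + 1) and log2(TPM + 0.1), 2 and 3 genes were lower in WTL against WT instead of 0. With each library left out in turn, 0 to 1 genes were lower in WTL against WT and 1 to 2 were higher in KOL against WTL.

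Signs turned only for log2 fold changes that were not called. Msr1 was at -0.14 and -0.15 in WTL against WT and at -0.60 on both scales in KOL against KO on log2(TPM + 1) and log2(TPM + 0.1), where Lpl in KOL against KO was at -0.47 on both and the Pparg interaction at 0.082 on the first. Scarb1 in KO against WT was at -0.0008 with DESeq2, -4.5e-05 with its size factors, and -0.0865 and -0.0885 on the TPM scales. Leaving out single libraries gave -0.069 to 0.039 for Scarb1 in KO against WT, -0.30 to 0.085 for Msr1 in KOL against WTL and -0.0049 to 0.030 for Lpl in KOL against KO. Over all genes, TPM gave 770 higher calls in WTL instead of 1766, 1556 in KO against WT instead of 2427, and 932 in KOL against KO instead of 2113, and 603 negative interactions instead of 1225. The cause of these shifts was not tested.

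Replicate numbers 1 to 3 occur in the titles of every group. The deviations of same-numbered libraries from their group means correlated at -0.57 to 0.214 over the 4 comparisons. Deviations from means of 3 libraries cannot show whether same-numbered libraries shared a mouse, culture or batch. With the replicate block, 8 of the 10 genes were lower in KO against WT and 6 had a more positive LPS response in KO, as without it. The depth limits Pparg most, at 21.5 to 38.6 normalized counts in KOL, and 3 libraries a group limit every test.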
